A study of Mus musculus with 2 samples.

Results

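The 10 RNAs described here, Malat1, Neat1, Meg3, H19, Rian, Mirg, Gas5, Snhg1, Kcnq1ot1 and Airn, are long non-coding RNAs that are retained in the nucleus, made from imprinted loci or spliced from host genes of small nucleolar RNAs (snoRNAs). They were taken by gene symbol from the 22609 gene entries that both count tables hold, and all 10 were present. The set was chosen by RNA class with the ratio of mimic over scramble counts already known for some of its RNAs, Malat1 among them, so every ratio between the libraries below is a description and carries no test. Ago2, the Argonaute protein that holds a microRNA (miRNA) against its target RNAs, was immunoprecipitated from mouse TM4 cells, and the RNA that came down with it was sequenced. TM4 is an established mouse Sertoli cell line, which stands in for the somatic nurse cells of the testis. The cells were transfected with a miR-471-5p mimic or with a scramble control and harvested for Ago2 immunoprecipitation 48 h later. The comparison asks which RNAs gained or lost association with Ago2 when miR-471-5p was raised.

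Each condition is 1 library, with 18628310 reads on genes for mimic and 18717225 for scramble. There is no replicate check of any difference, and the intervals given below are 95% exact intervals that cover counting error only, since sequenced PCR copies are not independent molecules. No library of RNA before immunoprecipitation was analysed here, so a higher count can be more RNA in the cell or more of it held by Ago2, and fewer cells of a type and less RNA per cell cannot be told apart. Of 12 Sertoli cell markers, 5 reached 20 counts over both libraries, led by Sox9 (1228 counts with mimic, 1070 with scramble), while Amh had 5 counts in each library, Fshr had 0 in both and Rhox5 had no entry. The 5 Sertoli markers summed to 2173 and 2013 counts, and Wt1 (73 and 35 counts) was the one that differed by at least 2-fold, the limit used throughout. The peritubular and fibroblast markers that reached 20 counts, 5 of 6, summed to 236483 and 231523 counts. The most counted was Col1a2 at 112585 and 81419, and Dcn was past the limit at 3478 and 839. Acta2 went the other way, at 73076 and 101778, and of the 5 ratios 2 were above 0 and 3 below. Only Ddx4 and 2 others of 8 germ cell markers and Star of 6 Leydig cell markers reached that depth, with sums of 116 and 131 counts and of 60 and 69 counts.

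Long non-coding RNAs act as RNA and not through a protein. Malat1 gathers in nuclear speckles, the stores of splicing factors, while Neat1 builds the paraspeckles that form beside them. H19, Meg3, Rian, Mirg, Kcnq1ot1 and Airn come from imprinted loci, where only the maternal or only the paternal copy is read. Gas5 and Snhg1 carry snoRNAs in their introns, and once these are cut out the spliced RNA is exported and broken down on ribosomes. A miRNA finds a target mainly through its seed, the bases next to its 5′ end.

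The mature sequence of the transfected miRNA (RefSeq, mouse GRCm38.p6, chrX:66792634-66792655, minus strand) is shown because its seed sets which sites could pair with it. Capitals mark the seed, bases 2 to 8.
miR-471-5p: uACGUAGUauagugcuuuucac
The letters that pair with this seed are ACTACGT, called the 7mer-m8, and those that pair with bases 2 to 7 are CTACGT, called the 6mer. A 7mer-A1 is CTACGTA and an 8mer is ACTACGTA. The matches overlap, since each longer one holds the 6mer, and they were read on the transcribed strand of every GENCODE M21 transcript of the 10 genes (build GRCm38).

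The one 7mer-m8 in the set was in Rian, at chr12:109646175-109646181 on the plus strand, in an exon of 4 of the 20 annotated Rian transcripts. It lies at bases 14 to 20 of Rian-201, the longest transcript. Sites of 6 bases were found in Rian again and in Meg3, Mirg, Snhg1 and Kcnq1ot1. They were in 1 of 11 annotated transcripts of Meg3, 2 of 12 of Mirg, 2 of 18 of Snhg1 and the 1 of Kcnq1ot1. The Snhg1 transcripts with the site are 2728 and 2348 nucleotides long, against a mean of 810 for that gene, so most annotated forms lack it. The sites are printed with the bases around them, from the 5′ end, with the match in capitals.
Rian 7mer-m8: cacggacgatgACTACGTcactagaggtct
Rian 6mer: cactaaagatgcCTACGTgagtagagaagc
Meg3 6mer: ccctcccccctcCTACGTcagtctagctct
Mirg 6mer: acctgtgcttgcCTACGTgtggtaaagcgg
Snhg1 6mer: ggggtaagtactCTACGTctttatgtgctg
Kcnq1ot1 6mer: ggtctctatttcCTACGTggcccttagaag
The 6mers lie at chr12:109649587-109649592 for Rian, chr12:109542946-109542951 for Meg3, chr12:109748066-109748071 for Mirg, chr19:8723516-8723521 for Snhg1 (all on the plus strand) and chr7:143264499-143264504 on the minus strand for Kcnq1ot1. No annotated transcript of Malat1, Neat1, H19, Gas5 or Airn held the 6mer. For Airn the longest of these is 1375 nucleotides, while its gene spans 118826, so most of that gene was not searched. Among the longest transcripts of 13374 long non-coding RNA genes, with a median length of 1190 nucleotides, 6.84% held the 6mer and 1.52% the 7mer-m8, and among the 88 of at least 6000 nucleotides the shares were 34.1% and 9.09%. Read in the same way, in the longest transcript alone, 3 of the 10 RNAs (Rian, Snhg1 and Kcnq1ot1) held the 6mer and 1 the 7mer-m8, since the sites of Meg3 and Mirg are in shorter transcripts. Malat1 and H19, the RNAs with ratios furthest from 0, held no 6mer. Rian, with the longest match, differed little between the libraries, as given below. Whether pairing with the seed has a part in any of these ratios was not tested.

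Malat1 was far lower in the mimic library and Neat1 higher, although their genes lie side by side. Malat1 had 436 counts with mimic and 4086 with scramble, which is 23.3 and 219 CPM (counts divided by the scaled library size and put on a common scale). The log2 ratio of mimic over scramble was -3.23 (interval -3.37 to -3.09), or 9.38-fold lower with mimic (8.49 to 10.4). Of the 12186 genes whose counts in the pair of libraries came to 20 or more, here called tested, 3 had a lower ratio and 12182 a higher one. The RNA is made from 1 exon of 6983 nucleotides at chr19:5795690-5802672 on the minus strand (GRCm38, as are all gene positions below).

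Neat1 moved the other way. It had 4632 counts with mimic and 2211 with scramble, or 248 and 118 CPM, a log2 ratio of 1.07 (0.99 to 1.14) and a 2.09-fold higher level with mimic (1.99 to 2.20). Its interval reaches just under the 2-fold limit, and with all entries of the tables, those aligned to several places included, as library size the log2 ratio was 0.99. A ratio higher than that of Neat1 was found for 436 tested genes. Neat1 lies at chr19:5824708-5845478 on the minus strand, and its longest transcript is 20771 nucleotides. Its start is 42.8 kb upstream of the Malat1 start. Counted against each other inside a library, which needs no scaling, Neat1 had 10.6 counts for each count of Malat1 with mimic and 0.541 with scramble, a 19.6-fold difference (17.6 to 22.0).

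**Figure D1:**
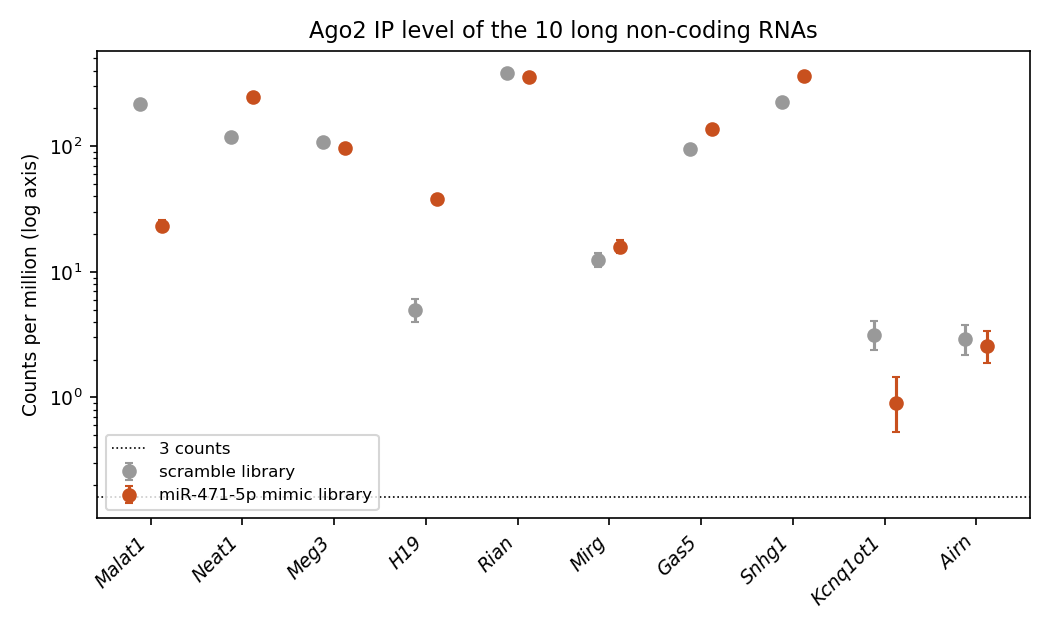
Level of each of the 10 RNAs in CPM (log axis) in the scramble library (grey) and the miR-471-5p mimic library (orange), with 95% exact counting intervals and 1 library per condition; the dotted line marks 3 counts. The points lie close together for Meg3, Rian and Airn and far apart for Malat1 (219 against 23.3) and H19 (4.98 against 37.9).

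The genes around Malat1 were near equal in the libraries. Within 250 kb of its start 20 other tested genes start, with a median log2 ratio of 0.08; Neat1 was the one past the limit upward and Tigd3, a transposase-derived gene with 28 and 59 counts (-1.08), the one downward. Frmd8, 72.6 kb upstream, had 1468 and 1477 counts (-0.01). Among the 8616 genes of 500 counts or more Malat1 had the lowest ratio. The genes closest to it by log2 ratio, over the only pair of libraries there is, were Zbed6 with 102 and 852 counts (-3.06), Elk4 with 86 and 696 (-3.02) and D830031N03Rik with 99 and 659 (-2.74). Zbed6 encodes a zinc-finger repressor of Igf2 and Elk4 an ETS transcription factor. For Neat1 the closest were Ifi204, an interferon-inducible DNA sensor with 1770 and 846 counts, Gm6251 with 1324 and 633, and Igfbp4, which binds insulin-like growth factors, with 7128 and 3409, all at 1.06. Ratios above that of Neat1 belonged to 154 of the 8616 genes.

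RNAs that encode proteins of the bodies marked by Malat1 and Neat1 differed by less than 2-fold, as do most tested genes. The share of all tested genes past the limit in either direction was 7.04%, and the counts of both lists are near it. All 12 listed paraspeckle proteins were tested and 0 of 12 passed the 2-fold limit, with log2 ratios of -0.31 to 0.67 (Nudt21) and a median of -0.05. Sfpq, an RNA-binding core protein of paraspeckles and the most counted, had 5490 and 5777 counts (-0.07). Of 9 nuclear speckle and splicing proteins 0 passed the limit, with a range of -0.51 (Rnps1) to 0.45 and a median of 0.10. Their most counted member, the splicing factor Srsf1, had 4923 and 3606 counts (0.45). Over all tested genes the median was -0.00, and 90% lay between -0.80 and 0.91. The small RNAs of the nucleus could not be read, as 8 of 11 had an entry and none reached 20 counts.

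**Figure D2:**
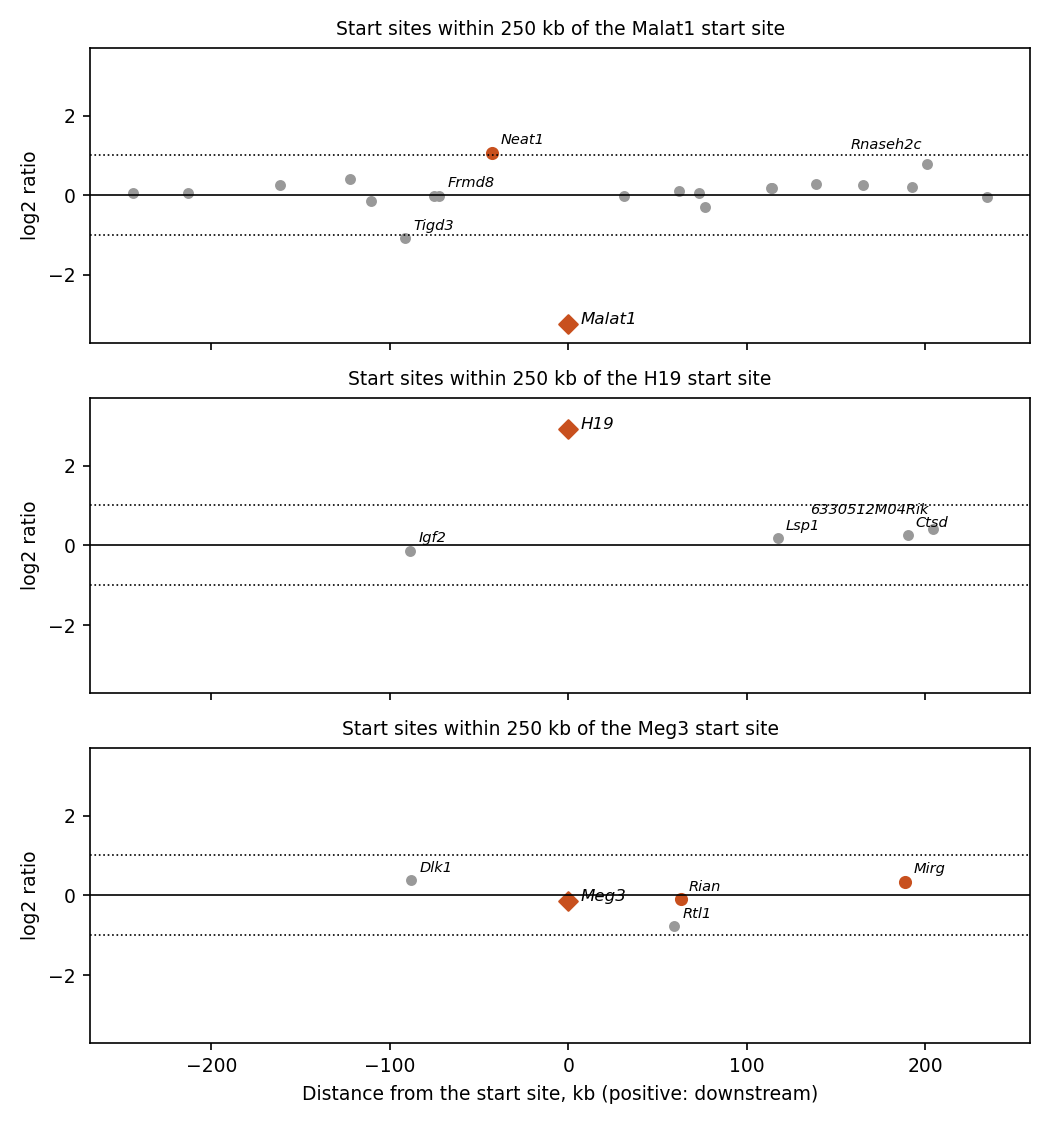
log2 ratio of mimic over scramble (vertical) of tested genes that start within 250 kb of the start of Malat1, H19 and Meg3 (horizontal, kb), with the named RNA as a diamond, other RNAs of the set in orange and other genes in grey; dotted lines mark the 2-fold limit. Malat1 at -3.23 and H19 at 2.93 stand alone beside neighbours mostly within the limit.

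H19 was the RNA of the set with the greatest gain. It had 708 counts with mimic and 93 with scramble, or 37.9 and 4.98 CPM, a log2 ratio of 2.93 (2.61 to 3.26) and a level 7.61-fold higher with mimic (6.12 to 9.55). A higher ratio was found for 28 tested genes. H19 is a maternally expressed RNA of 2286 nucleotides in 5 exons at chr7:142575529-142578143 on the minus strand. Igf2, the paternally expressed growth factor that shares enhancers with it, had 405 and 445 counts (-0.14, interval -0.33 to 0.06). There were 1.75 H19 counts for each Igf2 count with mimic and 0.209 with scramble, an 8.36-fold difference (6.45 to 10.9). The other tested genes within 250 kb of the H19 start, 4 with Igf2, were all within the limit and had a median of 0.22.

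H19 is also the precursor of miR-675, whose hairpin lies inside the H19 gene, with miR-675-5p at chr7:142577112-142577133 and miR-675-3p at chr7:142577078-142577099 on the minus strand (RefSeq, GRCm38.p6). The mature sequences are shown, seeds in capitals, because the table holds an entry for this hairpin.
miR-675-5p: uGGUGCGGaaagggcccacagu
miR-675-3p: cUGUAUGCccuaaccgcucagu
That entry, Mir675, had 0 counts in both libraries. A read on the hairpin also lies on H19, and how reads on overlapping genes were assigned is not given beyond the entry for ambiguous reads (0.653% and 0.585% of entries). The 0 counts therefore set no upper limit on the level of the hairpin, and the counts of H19 cannot be split into precursor and other RNA.

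**Figure D3:**
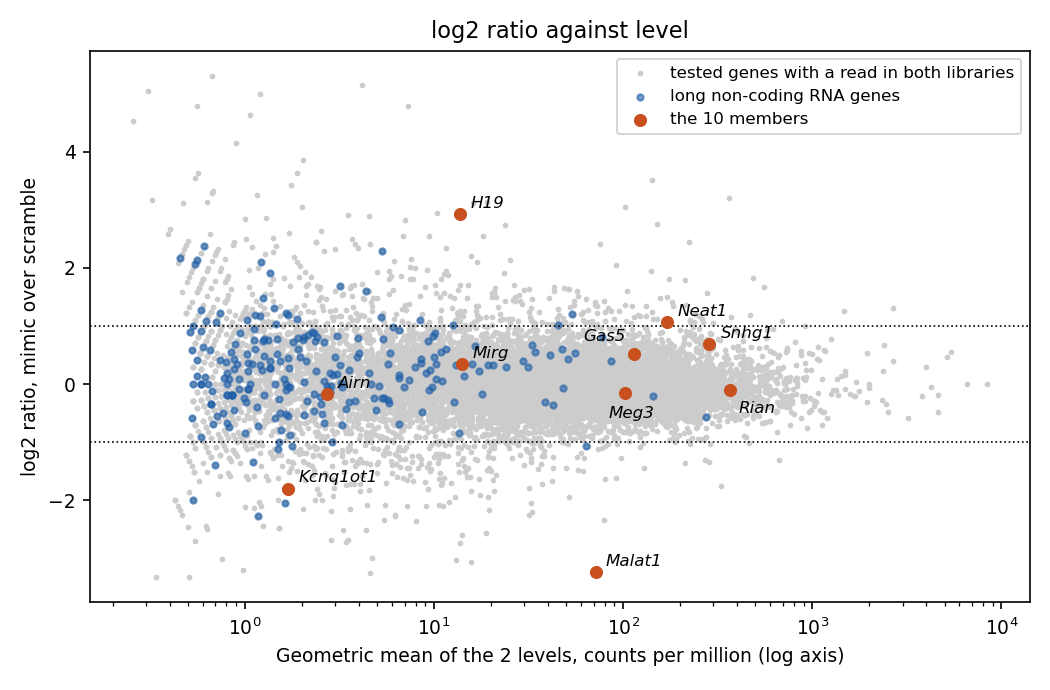
log2 ratio of mimic over scramble (vertical) against the geometric mean level of the libraries in CPM (horizontal, log axis) for tested genes with a read in both (grey), long non-coding RNA genes (blue) and the 10 RNAs of the set (orange), with the 2-fold limit dotted. Malat1 at -3.23 is the lowest of the genes with 500 counts or more and H19 lies at 2.93, while Meg3, Rian and Airn lie near 0.

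The 3 maternally expressed RNAs of the Dlk1-Dio3 region, Meg3, Rian and Mirg, follow one another on the plus strand of chromosome 12 and differed between the libraries by less than 2-fold. Meg3 had 1814 counts with mimic and 2003 with scramble, or 97.1 and 107 CPM, with a log2 ratio of -0.14 (-0.24 to -0.05). It lies at chr12:109541001-109571726 and is known as a growth-restraining RNA. Rian, which carries snoRNAs and miRNAs in its introns, had 6667 and 7114 counts, or 357 and 381 CPM, with a log2 ratio of -0.09 (-0.14 to -0.05). It lies at chr12:109603940-109661716. Mirg, the host of a large miRNA cluster, had 297 and 234 counts, or 15.9 and 12.5 CPM, with a log2 ratio of 0.34 (0.09 to 0.60), at chr12:109729764-109749460. Rian and Meg3 were near equal in the libraries and Mirg slightly higher with mimic.

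Set against each other, Meg3 and Rian kept their ratio, with 0.272 Meg3 counts per Rian count under mimic and 0.282 under scramble, and a quotient of 0.966 whose interval holds 1 (0.899 to 1.04). Mirg had 0.0445 and 0.0329 counts per Rian count, a quotient of 1.35 (1.13 to 1.62), and 0.164 and 0.117 per Meg3 count, a quotient of 1.40 (1.16 to 1.69). The share of Mirg was thus higher with mimic by more than counting error, within the 2-fold limit. The longest Mirg transcript is shorter than those of the other two. Less the median of the class of the longest transcript, the log2 ratios were 0.31 for Mirg, 0.16 for Rian and 0.11 for Meg3. These lie closer together than the ratios themselves. By mean transcript length, Mirg (1633 nucleotides) and Rian (1467) would share a length class. The part of transcript length in these ratios was not tested. Dlk1, the paternally expressed Notch-like ligand at the edge of the region, had 146 and 112 counts (0.38), and Rtl1, a paternally expressed retrotransposon-derived gene read from the other strand between Meg3 and Rian, had 24 and 41 (-0.77).

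The small RNAs inside these hosts had few or no counts in both libraries. GENCODE places 14 miRNA genes inside Mirg, of which 13 had an entry, and they summed to 3 counts in each library. Inside Rian 3 of 4 miRNA genes had an entry, with 0 and 1 counts, and the 2 inside Meg3 had 0. Of the 34 miRNAs of the Mirg region with an entry none reached 20 counts over both libraries, and their counts are too low to compare. The paper does not state whether RNAs as short as a mature miRNA were kept for sequencing. Few counts therefore do not show that these miRNAs were absent from Ago2. The 13 snoRNA genes placed inside Rian had no entry.

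Kcnq1ot1 was lower in the mimic library and Airn was not, both at low counts. These are paternally expressed RNAs that silence neighbouring genes in cis. Kcnq1ot1 had 17 counts with mimic and 59 with scramble, or 0.910 and 3.16 CPM, a log2 ratio of -1.80 (-2.67 to -0.998) and a 3.47-fold lower level (1.997 to 6.35). The interval reaches just inside the limit. A lower ratio was found for 72 tested genes. It is annotated as 1 exon of 93092 nucleotides at chr7:143203458-143296549 on the minus strand. The 4 tested genes within 250 kb of its start were within the limit, with a median of 0.19.

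Airn had 48 and 54 counts, or 2.57 and 2.89 CPM, with a log2 ratio of -0.17 and an interval that spans 0 (-0.76 to 0.42). It lies at chr17:12741311-12860136 on the plus strand. Igf2r, the receptor gene that Airn silences on the paternal copy and overlaps in antisense, had 1670 and 1594 counts (0.07, -0.03 to 0.17), and Airn counts per Igf2r count were 0.0287 and 0.0339, a quotient of 0.848 with an interval that holds 1 (0.559 to 1.28). There were 0.354 Kcnq1ot1 counts per Airn count with mimic and 1.09 with scramble, a quotient of 0.324 (0.156 to 0.659). Neither source used here states whether counting used the strand, so reads of Airn and Igf2r where they overlap, and of Kcnq1ot1 and Kcnq1 (0 and 3 counts), cannot be told apart.

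Imprinted protein-coding neighbours of the 6 imprinted RNAs were measured as a list of 16 genes. Of these, 8 were tested and 0 of 8 passed the 2-fold limit, with log2 ratios of -0.77 to 0.43 and a median of 0.04. The most counted, Cd81, a membrane tetraspanin near Kcnq1ot1, had 6132 and 4752 counts (0.37). Past the limit were 7.04% of all tested genes, so 0 of 8 is near the share of the whole table.

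Both snoRNA host RNAs of the set had more counts in the mimic library, by less than 2-fold. Gas5 had 2542 counts with mimic and 1773 with scramble, or 136 and 94.97 CPM, with a log2 ratio of 0.52 (0.43 to 0.61) and a 1.43-fold difference. It lies at chr1:161034422-161038539 on the plus strand, is known to build up when growth stops, and overlaps the antisense gene Zbtb37 (84 and 204 counts, -1.28). Snhg1 had 6725 and 4169 counts, or 360 and 223 CPM, with a log2 ratio of 0.69 (0.63 to 0.75) and a 1.61-fold difference, at chr19:8723475-8726443 on the plus strand. Counts of Snhg1 per Gas5 count were 2.65 and 2.35, so the pair differed by nearly the same fold, with a quotient of 1.13 (1.05 to 1.21).

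The other snoRNA hosts lay on the same side. Of 18 listed, 11 had an entry and 9 were tested. All 9 had a positive log2 ratio, with a median of 0.67 and a range of 0.12 to 1.21, and 2 of 9 passed the limit upward and 0 downward, against 3.96% and 3.08% of all tested genes. These were 1500012F01Rik, whose current name is Zfas1, with 1532 and 661 counts (1.21, 1.08 to 1.35), and Snhg6 with 1204 and 595 (1.02, 0.87 to 1.16). The 9 hosts summed to 6066 counts with mimic and 3479 with scramble. Hosts are short, and short genes were shifted upward in the whole table: the median log2 ratio was 0.55 for the 452 tested genes under 1000 nucleotides and 0.27 for the 1902 of 1000 to 2000. Of the 452 shortest genes 407 had a positive ratio and 14.8% were past the limit upward. The hosts with a length ran from 527 to 2302 nucleotides, so that class does not hold all of them. Of the genes of 1000 to 2000 nucleotides 7.36% were past the limit upward. Zfas1, at 2302 nucleotides, is among genes with a median of 0.04, of which 3.65% were past it upward. Against the median of their length class, 6 of the 7 hosts with a length were still above it, by a median of 0.27. The part of transcript length in these ratios was not tested.

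**Figure D4:**
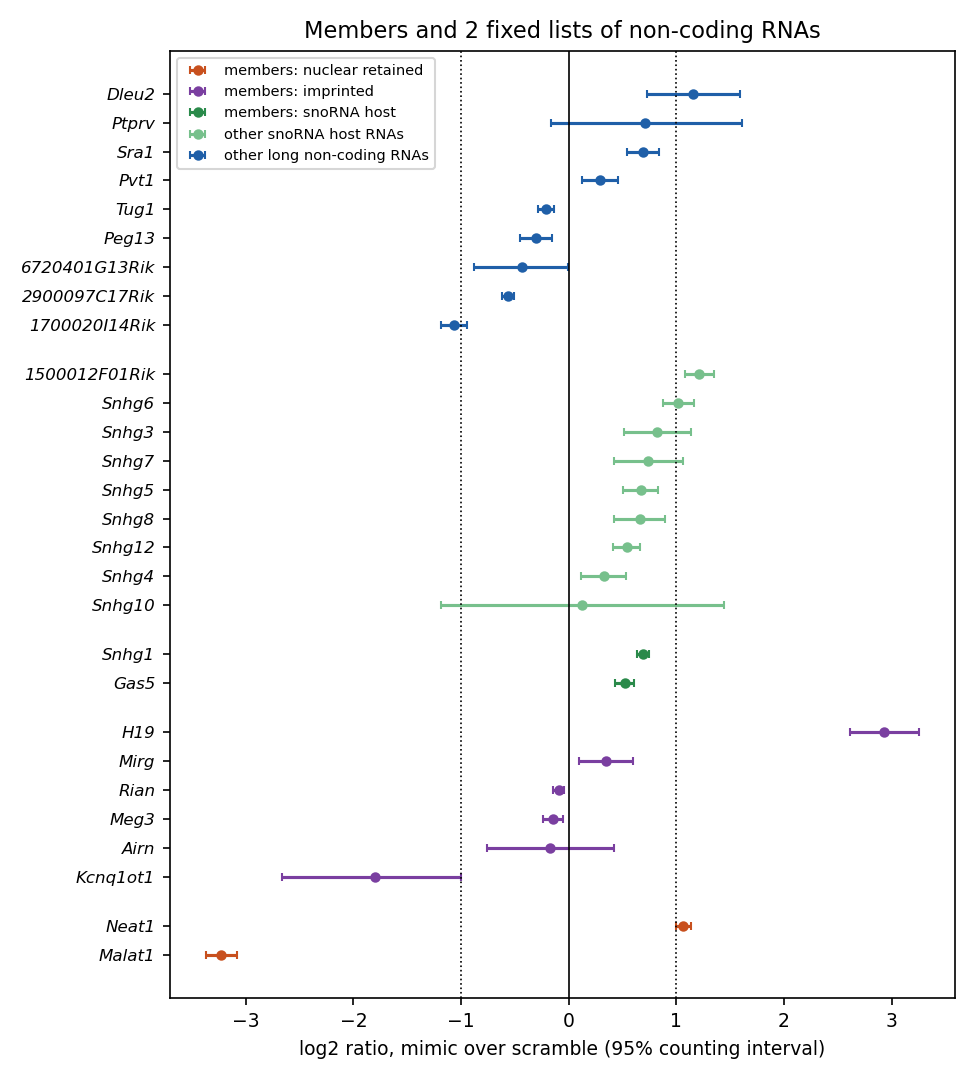
log2 ratio of mimic over scramble with its 95% counting interval (horizontal) for the 10 RNAs of the set, the 9 tested other snoRNA hosts and 9 other long non-coding RNAs (vertical), coloured by group, with dotted lines at the 2-fold limit. The snoRNA hosts all lie to the right of 0, while the other groups lie on both sides.

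The snoRNAs themselves gave few counts. Of 10 snoRNA genes inside Gas5, 2 had an entry, and Snord47 held all of their reads, 36 with mimic and 33 with scramble (0.12). Of 8 inside Snhg1, 1 had an entry, Snord22, with 63 and 45 counts (0.48). Of the RNAs that encode core proteins of snoRNA particles 0 of 8 were past the limit, with a median of 0.20. Their range was -0.69 (Dkc1, 624 and 1009 counts) to 0.70 (Nhp2l1, 370 and 227), with each end about as far from 0 as Snhg1 (0.69). The most counted, Nop58, had 1318 and 1160 (0.18). Spliced host RNAs are a known substrate of nonsense-mediated decay, and of 8 tested decay factors 0 passed the limit, with a median of -0.01. With 7.04% of all tested genes past the limit, 0 of 8 in either list is near the share of the whole table. The most counted, the kinase Smg1, had 2162 and 3046 counts (-0.50).

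snoRNA hosts are known for a start of transcription in a run of pyrimidines led by C, the terminal oligopyrimidine start shared with ribosomal protein genes. Start sites of RefSeq promoters (GRCm38.p6) were read for it, as C followed by at least 4 of C or T at the annotated start and on the transcribed strand. The run was present for 3 of 11 snoRNA hosts (27.3%), against 813 of 27025 genes (3.01%), and for 0 of 6 other RNAs of the set. Allowing 5 bases on either side of the start it was present for 7 of 11 (63.6%), against 21.2% of all genes and 1 of 6 other RNAs of the set (16.7%), Meg3. The windows of 10 bases before the start and 20 from it are shown for the hosts with the run and, for contrast, for Snhg1 and Malat1, which lack it. Capitals mark the run, or the start base alone where there is none.
Gas5: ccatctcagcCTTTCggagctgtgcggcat
Snhg8: gttcagaagtCTCTTTggctgcgatccgcc
Snhg7: gatgctcggcCTCTCggcagccatggcggc
Snhg1: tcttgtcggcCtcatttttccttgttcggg
Malat1: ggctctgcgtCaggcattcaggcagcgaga
The windows are chr1:161035156-161035185 (plus strand) for Gas5, chr3:123508317-123508346 (minus) for Snhg8, chr2:26640225-26640254 (minus) for Snhg7, chr19:8723477-8723506 (plus) for Snhg1 and chr19:5802653-5802682 (minus) for Malat1. Gas5 has a further annotated start without the run. Snhg8 had 387 and 245 counts and Snhg7 had 224 and 134, both higher with mimic within the limit. Zfas1, which was past the limit upward, lacked the run, and no start was read for Snhg6. Some of the 11 hosts had no count in either library. Whether the run has a part in the ratios was not tested. A match describes the letters of the annotated start and is not a measured start.

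Over the set, 2 of 10 RNAs were past the 2-fold limit upward (Neat1 and H19) and 2 of 10 downward (Malat1 and Kcnq1ot1), and 6 were within it. Of all tested genes 3.96% were past the limit upward and 3.08% downward, 7.04% in all, but the RNAs were chosen with some of these ratios known, so nothing is read from that difference. The median log2 ratio of the 10 was 0.12, with 5 values above 0 and 5 below. The 10 together took 23886 counts with mimic and 21796 with scramble, 0.128% and 0.116% of the reads on genes. Without Malat1 they took 23450 and 17710.

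Compared per kilobase of longest annotated transcript, the level scale on which RNAs of different length can be ranked, Snhg1 led in both libraries, with 132 CPM per kb with mimic and 81.9 with scramble. In the scramble library Rian (47.1), Gas5 (37.2) and Malat1 (31.3) followed, and then, well below, Meg3 (7.38), Neat1 (5.70), Mirg (3.28), H19 (2.18), Airn (2.10) and Kcnq1ot1 (0.0339). H19 and Airn did not differ there beyond counting error, and the other neighbours in the order did. In the mimic library the order was Snhg1, Gas5 (53.2), Rian (44.1), H19 (16.6), Neat1 (11.9), Meg3 (6.68), Mirg (4.16), Malat1 (3.34), Airn (1.87) and Kcnq1ot1 (0.00978), and neighbours differed beyond counting error. H19 thus went from place 8 to place 4 and Malat1 from 4 to 8. Which transcript is used matters for these levels, since Neat1 and Meg3 each have short and very long annotated forms and the table holds 1 value per gene. Airn and Kcnq1ot1 had 54 and 59 counts with scramble but were divided by 1375 and 93092 nucleotides. The Airn gene spans 118826 nucleotides, so its place above Kcnq1ot1 hangs on the annotated transcript.

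Set among all long non-coding RNA genes, typed by RefSeq or, failing that, GENCODE, the RNAs of the set include the most counted ones. By counts, Rian ranked 1 of 239 tested in the scramble library, Snhg1 3, Malat1 4, Neat1 6, Meg3 7 and Gas5 8. H19 ranked 69 there. Of the 239 genes 29 (12.1%) were past the limit upward and 12 (5.02%) downward, with a median log2 ratio of 0.23, and without the set 27 (11.8%) and 10 (4.37%) of 229. For the 11774 protein-coding genes the shares were 3.76% and 2.98% and the median -0.00. Many non-coding genes have few counts, and among the 71 with at least 200 counts 8 were past the limit upward and 2 downward.

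The RNAs were also set beside the tested genes of their length class, of which the longest is open-ended, so Neat1 and Kcnq1ot1 stand there beside genes that are mostly shorter. Of the 3989 genes of 4000 to 8000 nucleotides, the class of Malat1, 4.56% were past the limit downward and the median was -0.16, from which Malat1 lay -3.07 away. H19 is among 5018 genes of 2000 to 4000 nucleotides, of which 3.65% were past the limit upward, and lay 2.89 above their median of 0.04. Of the 695 genes of at least 8000 nucleotides, the class of Neat1, Meg3, Rian and Kcnq1ot1, 1.29% were past the limit upward and 10.1% downward, with a median of -0.26. Neat1 lay 1.32 above that median, Meg3 0.11 and Rian 0.16, while Kcnq1ot1 lay -1.54 from it. Mirg, Gas5 and Snhg1 lay 0.31, 0.48 and 0.65 above the median of their class, and Airn lay -0.45 from that of genes of 1000 to 2000 nucleotides. These differences depend on the transcript used, as the class was set by the longest one. The mean over annotated transcripts was 741 nucleotides for Gas5 and 810 for Snhg1, with log2 ratios of 0.52 and 0.69. Genes under 1000 nucleotides had a median of 0.55. Less the median of the class, the values of Malat1, Neat1, H19 and Kcnq1ot1 were past 1 on the log2 scale. For Kcnq1ot1, with 17 and 59 counts, the counting interval shifted in this way reaches inside that limit. The part of transcript length in these ratios was not tested.

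**Figure D5:**
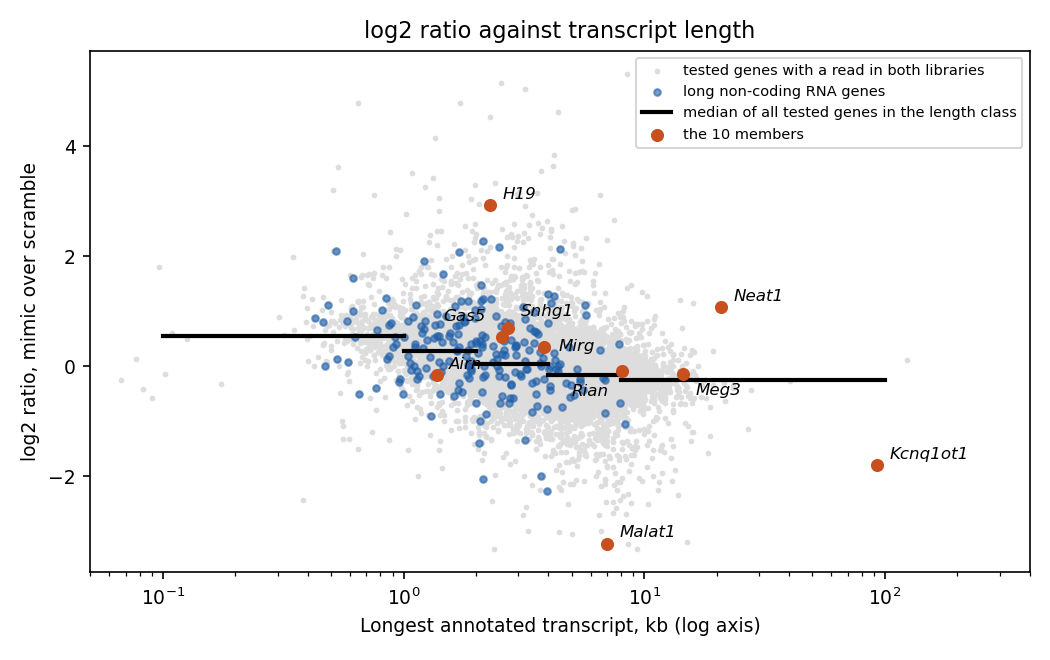
log2 ratio of mimic over scramble (vertical) against the longest annotated transcript in kb (horizontal, log axis) for tested genes with a read in both libraries (grey), long non-coding RNA genes (blue) and the 10 RNAs of the set (orange), with black bars at the median of each length class. The medians step down from 0.55 to -0.26 with length, and Malat1, H19, Neat1 and Kcnq1ot1 lie well away from the bar of their class.

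Other well-studied long non-coding RNAs, a list of 28 of which 15 had an entry and 9 were tested, lay on both sides. The median was -0.21, with 4 values above 0 and 5 below. Dleu2, which hosts a miRNA cluster lost in some leukaemias, was past the limit upward with 147 and 66 counts (1.15, 0.73 to 1.60). 1700020I14Rik, an older symbol of Oip5os1, was past it downward with 823 and 1717 counts (-1.06, -1.18 to -0.94). The most counted was 2900097C17Rik with 4194 and 6212 counts (-0.57), an older symbol of Norad, an RNA that binds Pumilio proteins, which RefSeq also lists for the coding gene Bscl2.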

How the data were processed

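Ago2-bound RNA was sequenced from miR-471-5p mimic-transfected and scramble-transfected TM4 cells, with 1 library per condition. For each library the authors deposited a table of raw counts by gene symbol, with 22609 gene entries and 5 summary entries in the form written by HTSeq. According to the submitters' processing notes, CASAVA 1.8.2, TopHat2 2.0.8b and HTSeq were used with the mouse build mm9, and the gene annotation, the counting mode and the strandedness are not given in the sources used here. Alignments to several places made up 39.8% (mimic) and 35.6% (scramble) of all entries, which are not in any gene's count, so RNAs with repeats or close copies can be undercounted. The summary entries stayed out of library sizes.

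TMM factors (1.0026 mimic, 0.9974 scramble) were computed over the whole table by edgeR 4.0.16 under R 4.3.3. A gene was tested if its counts came to 20 or more, which held for 12186 of the 15973 with any count. Having 1 library a condition, the quasi-likelihood test could not be fitted, and a fixed 2-fold limit (log2 ratio of 1 or more, or of -1 or less) took its place. Ratios have Clopper-Pearson intervals and levels have Poisson intervals, both exact. The scripts were tested on simulated data. DESeq2 1.42.0 size factors, total counts, upper-quartile factors, all entries as library size, other filters, other limits and the mean transcript length were tried as alternatives.

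The members and the lists were chosen with earlier results of these data known. The text names all 10 members, in each list the genes past the limit and the one with most reads, and the genes with ratios nearest to Malat1 and Neat1. Igf2, Igf2r, Dlk1, Rtl1, Kcnq1, Zbtb37, Frmd8, Tigd3, Snhg7, Snhg8, Nudt21, Rnps1, Dkc1, Nhp2l1, Acta2, the markers of low count and the small RNAs inside the hosts were named after their values were seen. Some genes of the lists and neighbourhoods are not reported here. Lengths, positions and types came from GENCODE M21 (GRCm38) and RefSeq (GRCm38.p6), matched by symbol for 98.9% and 99.4% of tested genes, because mm9 gene models were not used here; the count tables hold no positions.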

Additional observations from a re-analysis of the deposited data

Results flagged for a closer look

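The share of entries aligned to more than 1 place lies outside the gene counts used above, and it was 39.8% in the mimic library against 35.6% in the scramble library. These entries carry no gene name, so how many of them belong to Malat1, Neat1 or any other RNA of the set was not tested. With them counted in the library sizes, the largest shift of a log2 ratio in the set was 0.08.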

How the results depend on the processing

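No paired analysis was possible because each condition has 1 library. All 40 log2 ratios of the 10 RNAs under other library scalings kept their sign, and the scalings by gene reads moved none by more than 0.02. A scaling moves every log2 ratio by the same amount, here at most 0.08. The ratio nearest to 0 in the set was -0.09 (Rian), so no sign could change and the 40 are not separate checks. With all entries as library size, Neat1 had a log2 ratio of 0.99, Rian -0.17 and Snhg1 0.61, so 1 RNA (H19) was past the limit upward. All 9 other snoRNA hosts stayed positive, which was fixed by their lowest ratio of 0.12. Upward, 1 RNA passed a 3-fold limit and 1 had its whole interval past 2-fold, H19 in each case. Downward, 1 RNA passed with at least 200 counts and 1 with the whole interval, Malat1 in each case. At 3-fold 2 RNAs passed downward, and at 1.5-fold 3 passed upward and 2 downward. With at least 200 counts the median log2 ratio of the set was 0.43 and that of long non-coding RNA genes 0.34, and without a filter the latter was 0.057. By mean transcript length, levels with scramble in CPM per kb were 276 for Snhg1, 260 for Rian, 128 for Gas5, 101 for Malat1, 39.7 for Meg3, 18.6 for Neat1, 7.68 for Mirg, 4.001 for H19 and 3.63 for Airn, an order that differs from the one by longest transcript in no place. With mimic by that measure Rian passed Gas5, Neat1 and Meg3 passed H19, and Malat1 passed Mirg. With no filter, 1688 of the 15973 genes with any count were past the limit upward and 1604 downward. Of genes with at least 200 counts 236 and 191 were. Of the 12186 tested genes 178 and 111 passed at 3-fold and 1420 and 1110 at 1.5-fold. No share of all genes was taken at 200 counts or for whole intervals, so nothing is read from the set there. Of 96 values under the alternatives, 28 moved past their counting interval or a set tolerance (1.5-fold for counts of genes). The depth limits Kcnq1ot1 and Airn most, with 76 and 102 counts, and with 1 library per condition the spread between cultures is unknown for every RNA.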

Other observations

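Outside the set and its lists, the long non-coding RNA genes past the 2-fold limit with most counts were 1810032O08Rik (334 with mimic, 165 with scramble, log2 ratio 1.02), 1190002F15Rik (230 and 107, 1.10), E230016K23Rik (219 and 45, 2.28), Gm12603 (142 and 47, 1.59) and 1700096K18Rik (106 and 33, 1.68), all higher in the mimic library and all chosen after their values were seen. On the lower side the RNAs outside the set and lists had few counts, the most being C130083M11Rik with 38 and 76 (-1.001), and the lowest ratios were those of Gm14015 with 10 and 48 (-2.26) and A630089N07Rik with 15 and 62 (-2.05). Near Airn, 199 kb from its start, the acetyl-CoA acetyltransferase gene Acat3 had 39 and 10 counts (1.96), and near Gas5 the antithrombin gene Serpinc1 had 62 and 26 (1.25), the other neighbours past the limit. None of these differences has a replicate check.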
